A study of Homo sapiens with 6 samples.

Results

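The genes described here are 9 components of the bone morphogenetic protein (BMP) system: the ligands GDF5, BMP2, BMP4 and BMP6, the secreted antagonists GREM1 and NOG, and the target genes ID1, ID2 and ID3. They were selected by name, with their measured values in these libraries already known, from the 28181 genes listed by Ensembl identifier in each of the 6 normalized count files. All 9 were listed and all 9 passed the filter on low values (a mean normalized count of at least 1 over the 6 libraries), as did 23040 genes in all. Because this comparison was the basis of the choice, the values of the 9 genes are given as a description and carry no p-value.

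The UE7T-9 line consists of mesenchymal stem cells from human bone marrow that were immortalized by hTERT and papillomavirus E7, and it was grown in DMEM. The study asked what overexpression of the adaptor protein gene SHC4 does to these cells, and bulk RNA was sequenced from 3 UE7T-9 SHC4 samples and from 3 UE7T-9 Cont samples. UE7T-9 SHC4 carries the SHC4 coding region in a lentiviral vector with a CMV promoter and puromycin selection. UE7T-9 Cont carries GFP in such a vector according to the study's methods, whereas the labels call these samples nontarget and wild type. The replicates are labelled as biological, without saying whether they were separate infections, clones or cultures, so any p-value measures only the spread between these samples. The 6 libraries held 18144993 to 27721397 recovered gene reads, and 3 reads were worth a normalized count of 2.50 to 3.53. In UE7T-9 Cont replicate 1 the collagen gene COL1A1 stood at 315042, against 87857 and 67813 in the other 2 control libraries. In UE7T-9 SHC4 replicate 1 it stood at 276719, against 130035 and 122241. Values without either library are given where it turned the direction of a member, and for some other genes.

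BMPs and the related growth and differentiation factors (GDFs) are secreted dimers of the TGF-β superfamily. They bring together type I and type II serine/threonine kinase receptors, which phosphorylate SMAD1, SMAD5 and SMAD9. These join SMAD4 and enter the nucleus, where the ID genes are classic direct targets. GREM1 (gremlin) and NOG (noggin) bind ligands outside the cell and keep them from the receptors. ID proteins lack a DNA-binding region and pair with E proteins, holding them off DNA. In mesenchymal cells this system is known for its part in bone, cartilage and joint formation, with GDF5 best known from developing joints.

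RefSeq promoter windows on GRCh38.p14, from 250 bases before to 50 bases after a start site, were found for 7 of the 9 genes. BMP2 and NOG had no entry. The windows below are shown because GDF5 and ID3 were the 2 members whose UE7T-9 SHC4 libraries all lay above the UE7T-9 Cont libraries, and ID1, the gene most often used as a BMP readout, is the counterpart whose groups overlapped. The GDF5 window is chr20:35454700-35454999 on the minus strand, the ID3 window chr1:23559452-23559751 on the minus strand and the ID1 window chr20:31605039-31605338 on the plus strand. Each is written 5′ to 3′ on the gene's strand, and capitals mark matches to GGCGCC, GTCTAGAC or CAGAC on either strand, which are letters associated with SMAD binding.
GDF5: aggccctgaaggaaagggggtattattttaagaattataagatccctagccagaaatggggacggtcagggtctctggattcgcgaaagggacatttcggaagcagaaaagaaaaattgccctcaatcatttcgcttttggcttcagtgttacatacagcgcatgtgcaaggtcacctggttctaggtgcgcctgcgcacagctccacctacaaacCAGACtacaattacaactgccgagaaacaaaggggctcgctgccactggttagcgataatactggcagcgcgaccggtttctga
ID3: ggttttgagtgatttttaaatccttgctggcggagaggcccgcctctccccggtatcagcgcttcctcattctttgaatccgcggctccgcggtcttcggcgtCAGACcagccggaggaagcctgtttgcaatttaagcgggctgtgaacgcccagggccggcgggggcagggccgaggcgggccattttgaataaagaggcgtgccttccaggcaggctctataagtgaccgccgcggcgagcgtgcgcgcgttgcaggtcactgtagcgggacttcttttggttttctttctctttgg
ID1: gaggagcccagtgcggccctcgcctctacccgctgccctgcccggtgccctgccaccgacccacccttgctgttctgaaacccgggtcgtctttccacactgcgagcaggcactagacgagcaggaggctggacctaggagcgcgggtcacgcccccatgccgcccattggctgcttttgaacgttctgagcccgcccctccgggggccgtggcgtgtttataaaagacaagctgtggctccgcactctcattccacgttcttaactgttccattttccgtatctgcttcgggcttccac

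CAGAC occurred once in the GDF5 window, 34 bases before the start site, and once in the ID3 window, 147 bases before it. None of these letters occurred in the ID1 window. CAGAC also occurred once in each BMP4 window and at 2 places in each GREM1 window, and these genes had overlapping groups. It was absent from the BMP6 and ID2 windows. On either strand, CAGAC was present in 45.3% of all 35116 promoter windows of this length, GGCGCC in 19.2% and GTCTAGAC in 0.202%. GTCTAGAC was in no window of the 7 genes. GGCGCC was found at 2 places in a window of BMP4 and at 2 places in a window of GREM1. The E-box letters CANNTG, the kind of site that E proteins bind, were present in 68.7% of all windows. They occurred at 3 places in the GDF5 window, at 1 place in the ID2 window, at 1 place in a window of BMP4 and not in the ID1 or ID3 window. CAGAC can share bases with CANNTG, and a match of letters is a description of the window only.

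The introduced gene was checked first. SHC4 (ENSG00000185634) was at a normalized count of 56.5, 157 and 130 in replicates 1, 2 and 3 of UE7T-9 Cont. In UE7T-9 SHC4 replicates 1, 2 and 3 it stood at 134870, 119166 and 155006. The log2 fold change was 10.32 (SE 0.32, limma adjusted p = 2.09e-06), so every library went with its label.

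Of the 9 genes, 0 were called by limma, which required an adjusted p below 0.05 together with an absolute log2 fold change above 1, where 0.0608% of all tested genes were called in either direction. edgeR also called 0 of the 9, against 0.0631% of its tested genes. At an unadjusted limma p below 0.05 there were 2 members higher and 1 lower, where 14.4% of all tested genes had such a p in either direction. DESeq2 called 1 member higher (GDF5), where it called 1.05% of tested genes higher, and 1 lower (NOG), where it called 1.15% lower. In 2 members, GDF5 and ID3, the lowest UE7T-9 SHC4 library exceeded the highest UE7T-9 Cont library, an order seen in 9.13% of tested genes. In NOG they all lay below, as in 10.2% of tested genes. The choice of the members used this same comparison, so these counts are a description only. The median log2 fold change of the 9 genes was 0.22, against -0.00395 for all tested genes.

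**Figure D1:**
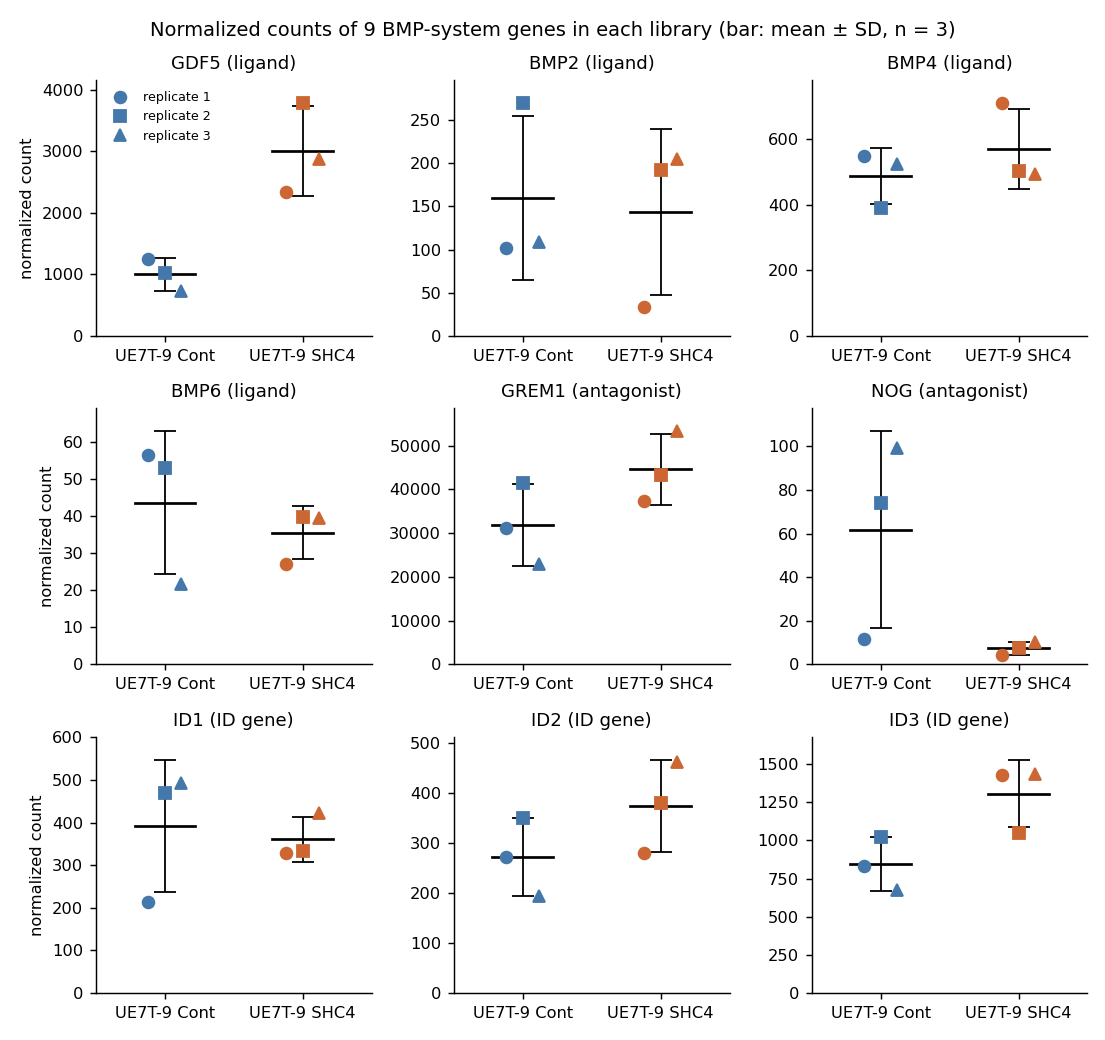
Normalized count of each of the 9 genes (vertical axes, linear from 0, a separate scale per gene) in the 3 UE7T-9 Cont libraries (blue) and the 3 UE7T-9 SHC4 libraries (orange), with circles, squares and triangles for replicates 1, 2 and 3 and black bars for the mean ± SD. The groups are apart for GDF5 (726 to 1258 against 2341 to 3788), NOG and ID3, and overlap for the other 6 genes.

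GDF5 (ENSG00000125965), the joint-forming ligand, lies at chr20:35433347-35454746 on the minus strand (GENCODE 29, GRCh38, as for all gene positions here). Its normalized counts were 1258, 1022 and 726 in replicates 1, 2 and 3 of UE7T-9 Cont. Those of GDF5 reached 2341, 3788 and 2880 in UE7T-9 SHC4 replicates 1, 2 and 3. The lowest SHC4 library thus lay well above the highest control. The mean was 1002 ± 267 (SD, n = 3) for UE7T-9 Cont against 3003 ± 731 for UE7T-9 SHC4, which gave a ratio of 3.00 and a log2 fold change of 1.59 (SE 0.23). As libraries were left out singly, the log2 fold change ran from 1.38 without UE7T-9 Cont replicate 3 to 1.77 without UE7T-9 Cont replicate 1. In bulk RNA, a change in the number of cells that express a gene and a change in RNA per cell cannot be told apart. The antisense gene GDF5OS shares 932 of the 2646 exon bases of GDF5. As the strand setting of the counting is not given, reads from the pair cannot be told apart in the shared part. GDF5OS itself was listed at 10.8 to 15.6 in UE7T-9 Cont and at 27.2 to 36.1 in UE7T-9 SHC4, far below GDF5 in every library.

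BMP2 (ENSG00000125845, chr20:6767664-6780280, plus strand), a strongly bone-inducing ligand, varied widely within both groups. Its normalized counts were 101, 270 and 108 in UE7T-9 Cont, against 33.4, 192 and 205 in UE7T-9 SHC4. These ranges overlapped, with means of 160 ± 95.2 and 144 ± 95.6 (SD, n = 3). Its log2 fold change of -0.38 (SE 0.66) became 0.46 without UE7T-9 SHC4 replicate 1, the lowest SHC4 library, and 0.07 without UE7T-9 Cont replicate 2, the highest control, so the direction was not stable.

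BMP4 (ENSG00000125378, chr14:53949736-53958761, minus strand), a ligand with broad roles in the embryo and in bone, stood at 548, 391 and 522 in UE7T-9 Cont and at 709, 504 and 493 in UE7T-9 SHC4. Only UE7T-9 SHC4 replicate 1 exceeded the control range, and the log2 fold change was 0.22 (SE 0.19), or 0.05 without that library and 0.07 without UE7T-9 Cont replicate 2. BMP6 (ENSG00000153162, chr6:7726797-7881422, plus strand), a ligand best known from iron regulation and bone, was the scarcest of the 4 ligands. It was counted at 56.5, 53.0 and 21.6 in UE7T-9 Cont and at 27.2, 40.0 and 39.6 in UE7T-9 SHC4. These ranges overlapped, and the log2 fold change of -0.19 (SE 0.41) ran from -0.63 to 0.05 as single libraries were left out, turning positive without UE7T-9 Cont replicate 1.

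Of the antagonists, GREM1 was abundant with overlapping groups and NOG was scarce with groups apart. GREM1 (ENSG00000166923) lies at chr15:32717974-32745107 on the plus strand. It was counted at 31138, 41534 and 22948 in UE7T-9 Cont and at 37243, 43261 and 53231 in UE7T-9 SHC4. UE7T-9 Cont replicate 2 lay above UE7T-9 SHC4 replicate 1, so the groups overlapped. The means were 31873 ± 9315 and 44578 ± 8075 (SD, n = 3), with a log2 fold change of 0.51 (SE 0.27). The antisense gene AC090877.2 shares 188 of its 14606 exon bases, and ID2 shares 38 of 2205 with ID2-AS1, so reads there have the same limit as for GDF5.

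NOG (ENSG00000183691, chr17:56593699-56595590, plus strand) is an antagonist with essential roles in joint and skeletal development. Its normalized counts were 11.7, 74.2 and 99.4 in UE7T-9 Cont replicates 1, 2 and 3, which were 12, 63 and 101 reads. They were 4.39, 7.49 and 10.5 in UE7T-9 SHC4 replicates 1, 2 and 3, which were 5, 9 and 9 reads. All SHC4 libraries lay below all controls, but UE7T-9 Cont replicate 1 was closer to the SHC4 libraries than to the other 2 controls. The mean of 61.7 ± 45.1 in UE7T-9 Cont was 8.28 times that of 7.46 ± 3.04 in UE7T-9 SHC4 (SD, n = 3). The log2 fold change was -2.50 (SE 0.74) on the log2(value + 1) scale and -3.07 in DESeq2. The added 1 makes changes at low read numbers look smaller. With a pseudocount of 0.1 the log2 fold change was -2.64, still short of the DESeq2 value. Without UE7T-9 Cont replicate 1 it was -3.43, and without UE7T-9 Cont replicate 3 it was -1.94.

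Of the 3 ID genes, only ID3 had groups that were apart. ID1 (ENSG00000125968, chr20:31605283-31606515, plus strand) was counted at 214, 470 and 493 in UE7T-9 Cont and at 328, 333 and 422 in UE7T-9 SHC4. All 3 SHC4 values fell between the lowest and the highest control, and the log2 fold change was -0.04 (SE 0.29). It ran from -0.42 without UE7T-9 Cont replicate 1 to 0.17 without UE7T-9 Cont replicate 3, and was 0.03 without UE7T-9 SHC4 replicate 1.

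ID2 (ENSG00000115738, chr2:8678845-8684453, plus strand) was counted at 272, 351 and 195 in UE7T-9 Cont and at 279, 380 and 463 in UE7T-9 SHC4. The ranges overlapped, since UE7T-9 Cont replicate 2 lay above the SHC4 library of replicate 1, and the log2 fold change was 0.47 (SE 0.25). ID3 (ENSG00000117318, chr1:23557918-23559794, minus strand) was counted at 834, 1024 and 674 in UE7T-9 Cont and at 1432, 1051 and 1437 in UE7T-9 SHC4. The groups were apart, though the replicate 2 libraries of both groups nearly met. The ID3 means were 844 ± 175 and 1307 ± 221 (SD, n = 3), with a log2 fold change of 0.64 (SE 0.19) and a range of 0.48 to 0.79 over single libraries left out.

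**Figure D2:**
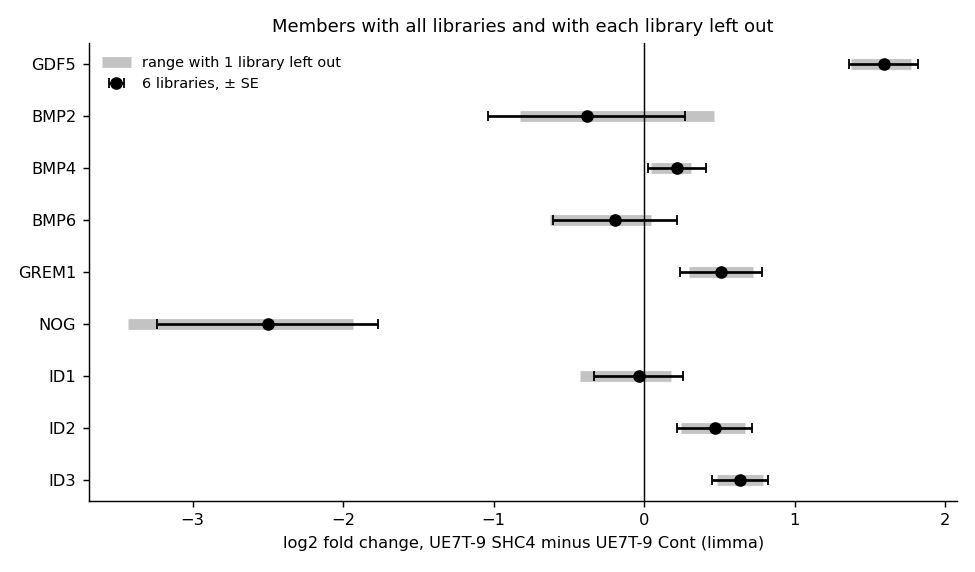
Log2 fold change of each gene, UE7T-9 SHC4 minus UE7T-9 Cont, from the limma fit (horizontal axis), with points and black bars for the estimate ± SE from 6 libraries and grey bars for the range as each library is left out in turn. GDF5 (1.38 to 1.77) and NOG (-3.43 to -1.94) stay on their side of 0, as do BMP4, GREM1, ID2 and ID3. The ranges of BMP2, BMP6 and ID1 cross 0.

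Variation between libraries of the same group was wide for several members. The within-group SD of log2(value + 1) was 1.17 for BMP2 and 1.21 for NOG, at the 98.4th and 98th percentiles of the 500 genes nearest in mean level. GDF5 (SD 0.38) stood at the 92.8th percentile of its own neighbours and ID1 (SD 0.50) at the 92nd. The other 5 members stood between the 64th (GREM1) and the 85.8th (ID2) percentile. All 9 thus varied more within groups than the median gene of like level.

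Levels of different genes were compared as normalized count per kilobase of exon. GREM1 had the highest level of the 9 in every library, at 2182 ± 638 in UE7T-9 Cont, against 3052 ± 553 in UE7T-9 SHC4 (SD, n = 3). In UE7T-9 Cont it was followed by ID3 (470 ± 97.6), GDF5 (379 ± 101) and ID1 (318 ± 125), neighbours whose ranges overlapped. BMP4 (158 ± 27.3) and ID2 (124 ± 35.4) came next, again with overlapping ranges, and the lowest ID1 library (174) fell within the BMP4 range. BMP2 (44.4 ± 26.4), NOG (32.6 ± 23.9) and BMP6 (15.7 ± 6.91) were the lowest, with the NOG range spanning that of BMP6.

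Per kilobase of exon, GDF5 (476) lay above ID3 (464) and NOG (6.18) below BMP6 (20.3) in UE7T-9 Cont replicate 1. In UE7T-9 SHC4 GREM1 stayed first, and the order of the means changed next below it and at the lower end. GDF5, at 1135 ± 276 per kilobase, stood second, and its lowest library (885) lay above the highest ID3 library (800). This separation depended on the length used. Per kilobase of the longest transcript, ID3 stood at 1144, 840 and 1149 and GDF5 at 910, 1473 and 1120 in UE7T-9 SHC4 replicates 1, 2 and 3, so the ranges overlapped and ID3 was the higher in replicates 1 and 3. On the exon scale ID3 followed at 727 ± 123, ID1 at 293 ± 42.7, BMP4 at 184 ± 39.6 and ID2 at 170 ± 41.8, the last 2 overlapping. Per kilobase of the longest transcript BMP4 (297) and ID1 (293) changed places. BMP2 stood at 39.9 ± 26.5 and overlapped BMP6 at 12.8 ± 2.60. NOG, at 3.94 ± 1.61, came last and below BMP6 in each of these 3 libraries.

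**Figure D3:**
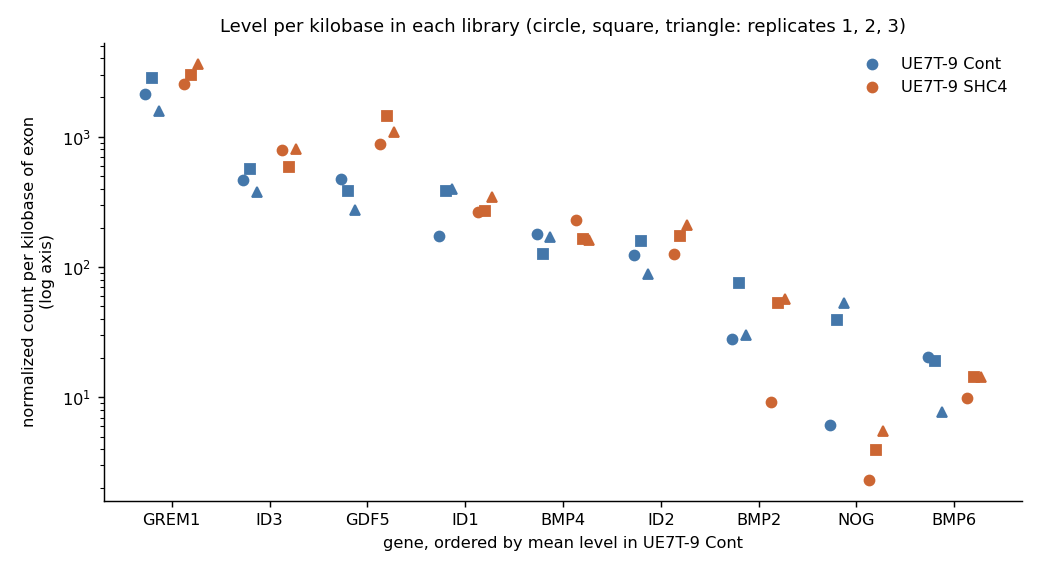
Normalized count per kilobase of exon (vertical axis, log scale) for each gene in each library, blue for UE7T-9 Cont and orange for UE7T-9 SHC4, with circles, squares and triangles for replicates 1, 2 and 3 and genes ordered by their mean in UE7T-9 Cont. GREM1 is the highest in all 6 libraries, and on this exon scale the mean of GDF5 is above that of ID3 in UE7T-9 SHC4 (1135 against 727), whereas per kilobase of the longest transcript their ranges overlap.

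The make-up of the ligand pool followed from these levels. Over the 12 BMP and GDF ligand genes listed, GDF5 made up 37.6%, 29.3% and 27.1% of the summed level per kilobase in UE7T-9 Cont replicates 1, 2 and 3. Its share was 49.2%, 68.2% and 61.3% in UE7T-9 SHC4 replicates 1, 2 and 3. GDF6, a close relative of GDF5, held 43.8% ± 5.40 in UE7T-9 Cont, against 23.4% ± 7.57 in UE7T-9 SHC4 (SD, n = 3). GDF6 thus had the larger mean share in the controls and GDF5 in the SHC4 cells. In UE7T-9 Cont replicate 1 the shares nearly met, at 37.7% for GDF6 and 37.6% for GDF5. Per kilobase of the longest transcript GDF5 was the larger in that library, at 35.2% against 34.4%. The summed ligand level was 1199 ± 163 and 1891 ± 181 per kilobase of exon. The ratio of GREM1 to GDF5 on the exon scale was 4.48, 7.36 and 5.73 in UE7T-9 Cont, against 2.88, 2.07 and 3.35 in UE7T-9 SHC4. GREM1 remained above GDF5 in every library.

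By a fixed rule, the genes with the profile most like that of GDF5 over the 6 libraries were DUSP15, which encodes a dual-specificity phosphatase, MEGF6, which encodes a protein with EGF-like repeats, and MYO3A, which encodes an unconventional myosin. Likeness was the largest difference between centred log2 profiles in any library, among 15856 genes with a mean of at least 10, and it was 0.32, 0.32 and 0.34. MEGF6 was counted at 3061, 2080 and 1201 in UE7T-9 Cont and at 5319, 7888 and 5781 in UE7T-9 SHC4. For ID1 the nearest profiles were BAMBI (0.13), a pseudoreceptor that dampens BMP and TGF-β signals, JPX (0.14) and MIR4482 (0.17). BAMBI was counted at 110, 217 and 230 in UE7T-9 Cont and at 148, 164 and 185 in UE7T-9 SHC4. Its lowest value was in UE7T-9 Cont replicate 1, as for ID1, which follows from the choice by likeness of profile.

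Outside the 9 members, 85 further genes of the pathway were listed by role, of which 77 were in the files and 73 were tested. limma called 0 of the 73 and edgeR 0. At an unadjusted limma p below 0.05, UE7T-9 SHC4 was higher for 12 and lower for 4, where 14.4% of all tested genes had such a p. DESeq2 called 3 higher, namely ATOH8, NBL1 and RGMA, where it called 1.05% of all its tested genes higher, and 0 lower. Of the 73, 49 had a log2 fold change above 0 and 24 below, with a median of 0.16. Without UE7T-9 Cont replicate 1 limma called 5 of these genes higher (ATOH8, NBL1, FST, SMAD6 and ACAN). Over all genes, limma called 12 higher and 2 lower of 23040 tested with all libraries. Leaving out that library gave 367 higher and 339 lower of 23087 tested. Calls thus rose outside the pathway genes too, and whether the rise was larger among the pathway genes was not tested.

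Among the other ligands 4 of 7 tested genes were above 0 and 3 below, and none had an unadjusted p below 0.05. GDF6 was counted at 1766, 2340 and 1714 in UE7T-9 Cont and at 2120, 1343 and 1380 in UE7T-9 SHC4, with overlapping groups and a log2 fold change of -0.28 (SE 0.20), with a range of -0.50 without UE7T-9 SHC4 replicate 1 to -0.14 without UE7T-9 Cont replicate 2. BMP8A and BMP8B, near-identical neighbours between which reads can be split, stayed below a normalized count of 10 in every library, with log2 fold changes of 1.55 (SE 0.71) and -0.45 (SE 0.71).

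Of the other antagonists and extracellular modulators, 12 of 14 tested genes were above 0, with a median of 0.56, and 4 had an unadjusted p below 0.05, all of them higher, beside the 14.4% of all tested genes with such a p in either direction. NBL1 (ENSG00000158747), a secreted antagonist of the DAN family to which gremlin also belongs, was called by DESeq2 (adjusted p = 0.00116) but not by limma (adjusted p = 0.112). Its normalized counts were 2125, 1314 and 1003 in UE7T-9 Cont, against 2917, 4124 and 3358 in UE7T-9 SHC4, and the ranges were apart. FST, which encodes the activin and BMP binding protein follistatin, averaged 6021 ± 2474 and 12204 ± 4386 (SD, n = 3). Its groups were apart, but neither limma (adjusted p = 0.224) nor DESeq2 (adjusted p = 0.0531) called it. The most abundant modulators, FSTL1 and CRIM1, had log2 fold changes of -0.11 (SE 0.27) and 0.12 (SE 0.16).

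Proteases that process the ligands or their inhibitors were split, with 4 of 7 above 0. PCSK5, a proprotein convertase, averaged 199 ± 12.9 in UE7T-9 Cont, against 107 ± 24.0 in UE7T-9 SHC4 (SD, n = 3). The log2 fold change was -0.92 (SE 0.21), inside the fold threshold, with an adjusted p of 0.151 in limma and 0.0127 in DESeq2. FURIN, a convertase that cleaves many BMP precursors, had a log2 fold change of -0.24 (SE 0.13). TLL1, a chordin-cleaving relative of BMP1, stood at 3.90, 8.24 and 0 in UE7T-9 Cont and at 22.8, 14.2 and 16.3 in UE7T-9 SHC4, and its log2 fold change of 2.37 (SE 0.78) had a limma adjusted p of 0.234. It was 1.45 without UE7T-9 Cont replicate 3, the library at 0, and 3.55 with a pseudocount of 0.1.

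The receptors and co-receptors had 8 of 13 tested genes above 0, with a median of 0.14. RGMA (ENSG00000182175), a co-receptor for BMP2 and BMP4, was counted at 50.7, 37.7 and 31.5 in UE7T-9 Cont and at 59.8, 134 and 94.3 in UE7T-9 SHC4. DESeq2 called it (adjusted p = 0.0377) and limma did not (adjusted p = 0.196). BMPR1B, a type I receptor that GDF5 favours, averaged 317 ± 53.9 and 227 ± 73.4 (SD, n = 3) with overlapping groups, and its log2 fold change was -0.53 (SE 0.26), or -0.22 without UE7T-9 SHC4 replicate 1. BMPR2, the type II receptor, had a log2 fold change of 0.12 (SE 0.15), NEO1, which binds RGMA, -0.14 (SE 0.11), and ENG 0.15 (SE 0.19). ACVRL1, a type I receptor of endothelium, was scarce, with a mean of 14.4 ± 6.48 in UE7T-9 Cont, against 27.1 ± 10.8 in UE7T-9 SHC4 (SD, n = 3).

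Among the SMADs and their regulators 9 of 10 genes were above 0, with a median of 0.19. SMAD6, an inhibitory SMAD and itself a BMP target, was counted at 592, 387 and 245 in UE7T-9 Cont and at 704, 719 and 693 in UE7T-9 SHC4. Its log2 fold change was 0.88 (SE 0.27, limma adjusted p = 0.207). SMAD4, the partner shared by the receptor-regulated SMADs, had a log2 fold change of 0.50 (SE 0.16, limma adjusted p = 0.226), with all SHC4 libraries above the controls. SMURF1, a ubiquitin ligase for SMAD1 and SMAD5, had a log2 fold change of -0.41 (SE 0.15, limma adjusted p = 0.269). SMAD5, SKI and SMURF2 had log2 fold changes of 0.10, 0.19 and 0.03, and those of SMAD5 and SMURF2 turned to -0.00457 and -0.07 under library size scaling, which moved the median of all genes to -0.10.

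Among the other known target genes 5 of 8 were above 0. ATOH8 (ENSG00000168874), a transcription factor gene that responds to BMP in several cell types, was counted at 155, 117 and 111 in UE7T-9 Cont and at 255, 256 and 261 in UE7T-9 SHC4. DESeq2 called it (adjusted p = 0.000624), and the log2 fold change of 1.02 (SE 0.18) had an adjusted p of 0.0961 in limma, the smallest of the 73 genes. MSX1 averaged 245 ± 23.2 and 166 ± 18.7 (SD, n = 3), with a log2 fold change of -0.56 (SE 0.17, limma adjusted p = 0.207), while its relative MSX2 had one of 0.36 (SE 0.17). All 5 E protein and TWIST genes, whose products pair with ID proteins or with each other, were above 0, with log2 fold changes of 0.58 (SE 0.24) for TWIST1, 0.43 (SE 0.22) for TCF4 and 0.36 (SE 0.13) for TWIST2, and none was called by limma, edgeR or DESeq2.

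**Figure D4:**
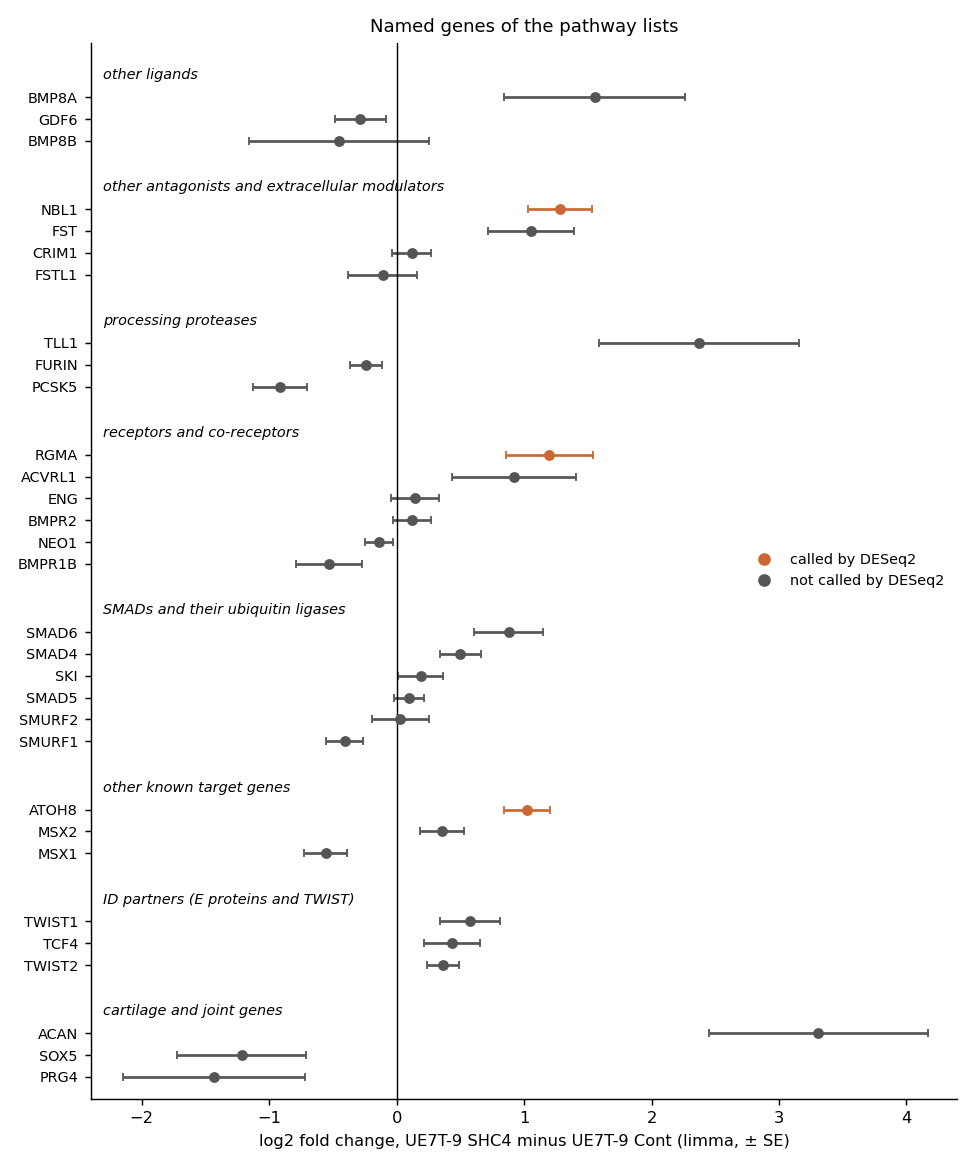
Log2 fold change, UE7T-9 SHC4 minus UE7T-9 Cont, from the limma fit (horizontal axis, points with bars of ± SE) for the named pathway genes outside the 9 members, grouped by role, with the 3 genes called by DESeq2 in orange. ATOH8, NBL1 and RGMA lie at 1.02, 1.28 and 1.20, and no gene shown was called by limma.

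Cartilage and joint genes, the tissue setting in which GDF5 is best known, were mostly below 0 in UE7T-9 SHC4, at 7 of 9 tested genes with a median of -0.21, and limma, edgeR and DESeq2 called none. ACAN, which encodes the cartilage proteoglycan aggrecan, was the exception in size. It was counted at 11490, 7726 and 695 in UE7T-9 Cont and at 29035, 38276 and 54052 in UE7T-9 SHC4, groups apart, with a log2 fold change of 3.31 (SE 0.86, limma adjusted p = 0.18). Without UE7T-9 Cont replicate 3 it was 2.06. COL2A1, the defining collagen of cartilage, stood at 0.832 to 2.35 in all 6 libraries, at or below the value of 3 reads. SOX5 and PRG4 had log2 fold changes of -1.21 (SE 0.51) and -1.43 (SE 0.71) with overlapping groups, and PRG4 ran from -2.06 without UE7T-9 Cont replicate 3 to -0.75 without UE7T-9 Cont replicate 2.

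Markers of the cell types that such a culture could hold were read beside these values. Neither limma nor edgeR called any of these markers. Of 8 mesenchymal stem cell markers 7 were above 0. DESeq2 called PDGFRB and LEPR higher in UE7T-9 SHC4, where it called 1.05% of its tested genes higher. The summed level of the 8 markers, mostly COL1A1, was 112774 to 362763 in UE7T-9 Cont, against 182078 to 328963 in UE7T-9 SHC4. Of 5 blood cell markers tested 1 was above 0, with sums of 218 to 407 and 274 to 346 and with PTPRC at 0 to 6.82. Of 3 endothelial markers tested 1 was above 0, and the 4 on the list summed to 58.0 to 78.9 and 49.2 to 96.7, with CDH5 at 0 to 1.18. The 4 epithelial markers were all below 0, with sums of 68.3 to 166 in UE7T-9 Cont, against 13.3 to 64.2 in UE7T-9 SHC4. Groups overlapped for EPCAM, CDH1 and KRT8, with EPCAM at 0 to 4.92. KRT18 had groups apart, and DESeq2 called it lower, as it did NOG, where it called 1.15% of its tested genes lower. Of the 4 chondrocyte markers 2 were above 0, and their sum, nearly all ACAN, was 1515 to 12052 and 29711 to 54866. The 3 adipocyte markers tested were below 0, with sums of 715 to 883 and 553 to 689 and ADIPOQ at 0 in 5 of the 6 libraries. The part of these markers in the values of the 9 genes was not tested.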

How the data were processed

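The 6 bulk RNA-seq samples were grouped by the condition in their labels. The signal deposited by the authors for each gene is a normalized count, in which the reads of the gene are divided by the size factor of the library. Their processing notes name HISAT2 2.0.5, featureCounts 1.5.0-p3 and DESeq2. The genome build, annotation and strand setting are not given in the sources used here. Every value was a whole multiple of the value of 1 read (100% of values, tolerance 0.01 reads), so the reads could be recovered, at 18144993 to 27721397 per library. Floors of 3 reads cover counting error only.

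The main test was limma 3.58.1 (lmFit, eBayes with trend) under R 4.3.3. It was fitted to log2(value + 1) of the 23040 among 28181 genes whose mean reached 1, and p-values were adjusted over all of these by the Benjamini-Hochberg method. Calls required an adjusted p below 0.05 together with a log2 fold change above 1 in absolute size. DESeq2 1.42.0 and edgeR 4.0.16 (quasi-likelihood) on the recovered reads, library size and TMM scaling, pseudocount 0.1, no filter, a mean of at least 10, no fold threshold, a replicate block and leaving out each library were alternatives. The fits were tested on simulated counts. Exon lengths and positions came from GENCODE 29 on GRCh38 by Ensembl identifier, and promoters from RefSeq.

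The members and lists were chosen with earlier results of these data known. Named besides the members are pathway genes called by limma or DESeq2, the 3 genes per list with the largest absolute moderated t, the 3 most abundant antagonists, receptors and SMAD genes, and the 3 genes nearest in profile to GDF5 and ID1. Cell type markers and any other gene were named after their values were seen. The values of 1 gene that this rule covers are not reported here, though it stays in the counts of its list. Protein sequences were not used here.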

Additional observations from a re-analysis of the deposited data

How the results depend on the processing

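Among the 9 BMP genes the count called higher was 0 and became 1, GDF5, under DESeq2, library size scaling, TMM scaling and no filter, and ran from 0 to 1 with single libraries left out. The count called lower was 0 and became 1, NOG, under DESeq2, and again ran from 0 to 1, with NOG called without UE7T-9 Cont replicate 1. Pathway genes called higher numbered 0, 3 under DESeq2 and 0 to 5 with single libraries left out. Over all genes limma called 12 higher and 2 lower. The count higher was 170 under DESeq2, 22 under library size scaling, 20 under TMM scaling and 31 without the filter, and the count lower was 185, 6, 4 and 9, with 1 lower under edgeR and 1 with pseudocount 0.1. With single libraries left out it ran from 1 to 367 higher and from 0 to 339 lower, with both highest counts reached without UE7T-9 Cont replicate 1. The causes were not tested.

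Replicate numbers pair nothing by the labels, and same-numbered deviations from the group means correlated at 0.148, 0.013 and -0.00696 across genes. A replicate block in limma gave 25 calls higher and 14 lower over all genes, with GDF5 as the 1 member called higher. UE7T-9 Cont replicate 1 correlated best with its own number, whereas replicates 2 and 3 did not.

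Directions near 0 turned for SMAD5 (-0.00457) and SMURF2 (-0.0748) under library size scaling. With single libraries left out the log2 fold change crossed 0 for BMP8B (range -1.07 to 0.13), FSTL1 (-0.35 to 0.10), ENG (-0.0234 to 0.35) and SMURF2 (-0.26 to 0.18). NOG had few reads in UE7T-9 SHC4, but its highest value over its lowest was 2.385 there, against 8.49 in UE7T-9 Cont. The part of depth in this spread was not tested.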
